A study of Oryctolagus cuniculus with 9 samples.

Results

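Aggrecan and 4 other proteins that chondrocytes secrete into cartilage were examined at the RNA level in repaired knee cartilage of New Zealand white rabbits. The genes were taken by their symbols, ACAN, HAPLN1, CILP, CYTL1 and LECT1, and all 5 are present among the 14870 genes of the deposited tables. Their levels were read in 9 libraries, 3 each from healthy cartilage, from trochlear defects left untreated and from trochlear defects that received a collagen and chondroitin sulfate (CLCS) scaffold. The rabbits were 4 to 5 months old at surgery, every animal had a defect in both knees, with the scaffold placed on the right and nothing on the left, and the tissue was harvested 12 weeks later. The labels name no genetic change in any animal. The labels call the healthy samples tissue of healthy areas and do not give the joint site or the animal, so injury, site and animal cannot be told apart. Whether libraries of equal replicate number came from the same rabbit is not stated, and the p-values measure the spread between these 3 libraries a group.

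Aggrecan (ACAN) is the large chondroitin sulfate proteoglycan that binds water and gives cartilage its resistance to compression. Link protein (HAPLN1) locks aggrecan onto hyaluronan, so that aggregates form which are held within the type II collagen network. Cartilage intermediate layer protein (CILP) is a matrix protein of the middle zone of adult articular cartilage that binds growth factors of the TGF beta family. Cytokine-like 1 (CYTL1) is a small secreted protein made by chondrocytes, and chondromodulin (LECT1, now CNMD) is a secreted inhibitor of blood vessel growth that marks avascular cartilage. SOX9 is the transcription factor that drives much of this group in chondrocytes.

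Values are normalized reads, the unit in which the authors deposited the data: the reads of a gene divided by the DESeq2 size factor of the library. Whole numbers recovered from these values, called reads here, summed to between 724986 and 1226408 per library. These sums are a small part of the read pairs that the study lists for its libraries and do not follow their order, for a reason not given in the sources used here. They are therefore not the sequencing depth. The labelled tissue was checked against type II collagen, the defining collagen of cartilage: COL2A1 had at least 505 reads in every library. The untreated library of replicate 3 stood apart. It had 458 normalized reads of COL2A1, where the other 8 libraries had 4062 to 25534. One gene without a symbol, ENSOCUG00000023467, took 1.49% of its reads and 17.8% to 49.4% of those of the other 8. Fold changes of the 5 genes that rest on this library are therefore given with and without it. Since the tissue was sequenced in bulk, fewer chondrocytes and less RNA per chondrocyte cannot be told apart.

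The main difference lay in CILP, which fell in both kinds of defect. The 3 healthy libraries had 1332, 633 and 436 normalized reads of CILP (ENSOCUG00000007302). The untreated libraries had 119, 145 and 64.4, and the CLCS libraries 116, 152 and 142. All 6 libraries from defects lay below the lowest healthy library, and the values of the 2 defect groups overlapped. CILP therefore stood at 13.7% of the healthy mean in untreated and 17.0% in CLCS treated cartilage. The log2 fold change was -2.78 (SE 0.50, adjusted p = 0.0381 from limma) in untreated and -2.39 (SE 0.43, adjusted p = 0.0361 from limma) in CLCS samples, a 6.86-fold and a 5.26-fold decrease. Healthy replicate 1 was the highest of the 9, and without it the log2 fold changes were -2.33 and -1.95. Without untreated replicate 3 that of untreated samples was -2.44. The call rests on having all libraries: with any 1 of them left out the adjusted p was 0.0847 to 0.116 in untreated and 0.0541 to 0.163 in CLCS samples, while the fold changes stayed between -3.14 and -2.33 and between -2.75 and -1.95.

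**Figure D1:**
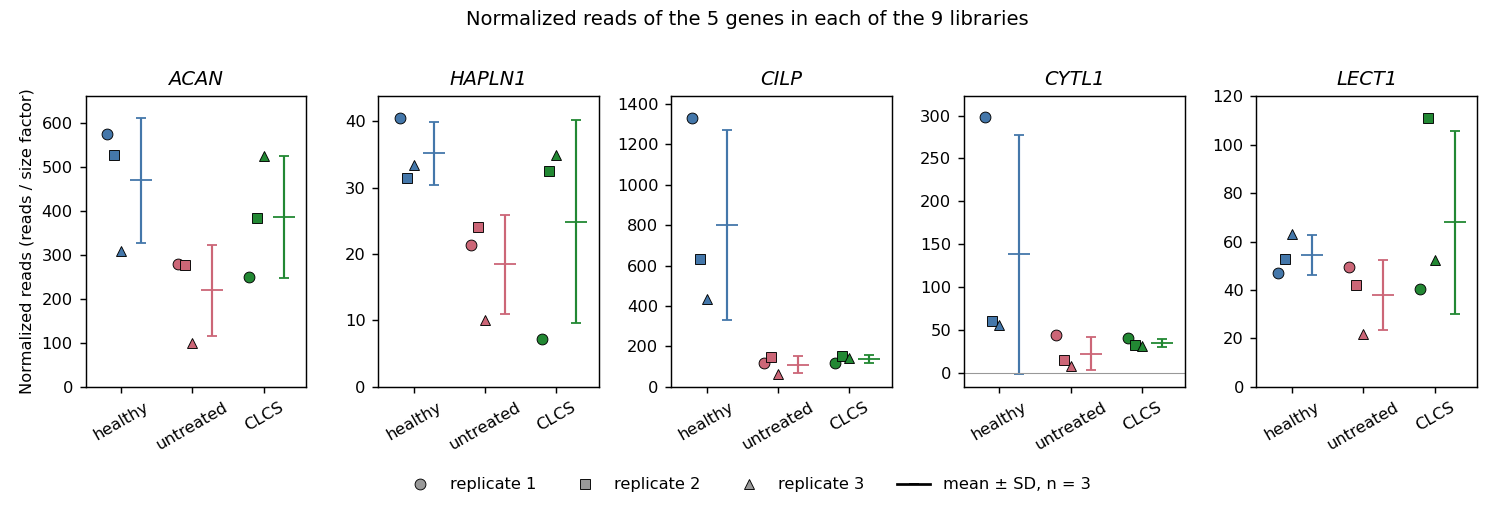
Normalized reads (vertical axis, reads divided by the size factor) of the 5 genes in the healthy, untreated and CLCS libraries. Points are single libraries, with the marker giving the replicate number, and bars give mean ± SD of 3 libraries. CILP lies at 436 or more in healthy and at 152 or less in all 6 defect libraries, while LECT1 spans 47.1 to 63.2 in healthy libraries and overlaps with both defect groups.

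ACAN (ENSOCUG00000022093) had 574, 526 and 307 normalized reads in healthy libraries, from 340 to 609 reads. It had 279.7, 276 and 99.7 in untreated libraries, and 248, 383 and 524 in CLCS libraries. The untreated libraries were all below the healthy ones, though the nearest of each differed little, and the CLCS libraries reached from below the untreated maximum to the level of the second highest healthy library. The mean was 468.9 ± 142 (SD, n = 3) for healthy, 218 ± 103 for untreated and 385 ± 138 for CLCS samples. In untreated against healthy samples the log2 fold change of ACAN was -1.19 (SE 0.49), with an adjusted p of 0.278 from limma. The difference did not pass the test, and its 95% confidence interval ran from -2.34 to -0.04. Without untreated replicate 3 the fold change was -0.70 (adjusted p = 0.514 from limma). In CLCS against healthy samples it was -0.30 (SE 0.39, adjusted p = 0.749 from limma), with an interval from -1.21 to 0.61.

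HAPLN1 (ENSOCUG00000002630) had few recovered reads, 7 to 43 per library. Its normalized reads were 40.5, 31.5 and 33.4 in healthy libraries. In untreated libraries they were 21.3, 24 and 9.97, and in CLCS libraries 7.23, 32.5 and 34.9. The untreated libraries were again below every healthy library. Of the CLCS libraries, replicates 2 and 3 lay among the healthy values and replicate 1 was the lowest of all 9. The log2 fold change was -0.97 (SE 0.38, adjusted p = 0.255 from limma) in untreated and -0.74 (SE 0.56, adjusted p = 0.555 from limma) in CLCS samples, neither past the test. Without CLCS replicate 1 the fold change in CLCS samples was -0.05, and without untreated replicate 3 that in untreated samples was -0.61. A long noncoding RNA, LOC127492860, overlaps HAPLN1 or lies within 1000 bases of it in the RefSeq annotation of mOryCun1.1, and LOC138844554 does so for CILP. The strand setting of the counts is not stated, so reads of these neighbours cannot be told from those of the genes.

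CYTL1 (ENSOCUG00000013482) had the widest spread among healthy libraries, with 299, 59.9 and 55.1 normalized reads. Untreated libraries had 44.1, 15.0 and 7.25, and CLCS libraries 40.3, 32.5 and 31.1. All 6 defect libraries lay below the healthy ones. The CLCS values lay close together. The log2 fold change was -2.47 (SE 0.83, adjusted p = 0.178 from limma) in untreated and -1.51 (SE 0.63, adjusted p = 0.274 from limma) in CLCS samples. Neither passed the test used here. DESeq2 on the whole reads called both, at an adjusted p of 0.0218 and 0.0361, with fold changes of -2.65 and -1.99. In the replicate block fit limma called the untreated difference as well (adjusted p = 0.0343) and not that of CLCS samples (adjusted p = 0.143). The size of the CYTL1 difference depended on healthy replicate 1, without which it was -1.69 and -0.72 in limma. Without untreated replicate 3 it was -1.91 in untreated samples.

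LECT1 (ENSOCUG00000005852) differed least from healthy cartilage. Its normalized reads were 47.1, 52.8 and 63.2 in healthy libraries. They were 49.6, 42.0 and 21.8 in untreated and 40.3, 111 and 52.3 in CLCS libraries. Both defect groups overlapped with healthy cartilage, and the highest LECT1 value of all 9 was that of CLCS replicate 2. The log2 fold change of LECT1 was -0.58 (SE 0.37, adjusted p = 0.529 from limma) in untreated and 0.19 (SE 0.41, adjusted p = 0.854 from limma) in CLCS samples, with intervals from -1.46 to 0.30 and from -0.76 to 1.14. Without CLCS replicate 2 the latter turned to -0.23, and without untreated replicate 3 the former was -0.24.

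Across the group, 1 of the 5 genes was called lower in untreated against healthy samples, where 1.2% of the 3496 tested genes were called lower. In CLCS against healthy samples it was also 1 of 5, where 1.03% of 3294 were. Both calls were CILP. The untreated libraries lay entirely below the healthy ones for 4 of the 5 genes, against 10.7% of all tested genes, and the CLCS libraries for 2 of the 5, against 12%. The median log2 fold change of the 5 genes was -1.19 in untreated and -0.74 in CLCS samples, where that of all tested genes was -0.02 and -0.08. These medians are the values of ACAN and of HAPLN1. Without untreated replicate 3 that of ACAN was -0.70, and without CLCS replicate 1 that of HAPLN1 was -0.05. Both comparisons share the 3 healthy libraries.

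**Figure D2:**
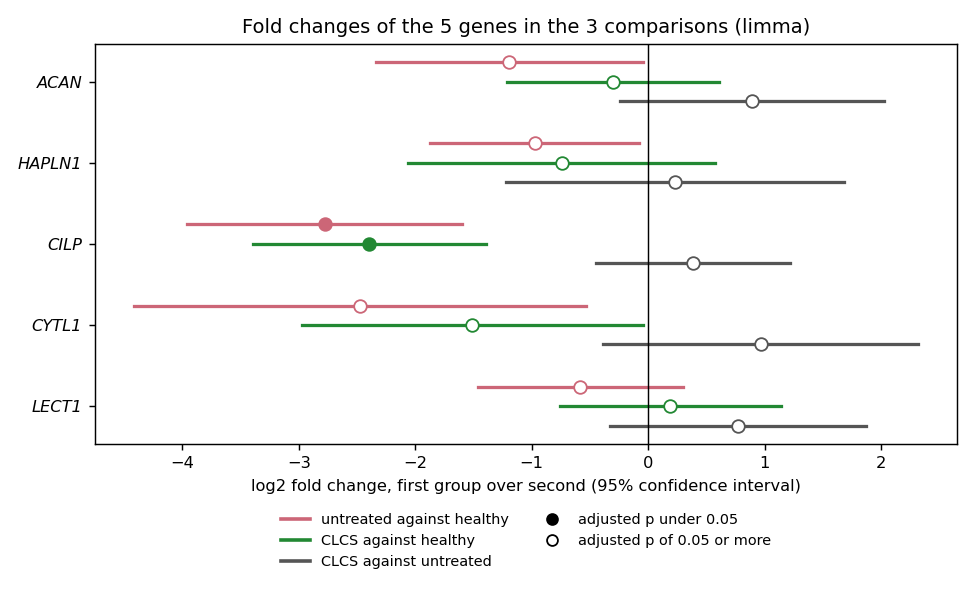
Log2 fold change (horizontal axis) of each gene in untreated against healthy, CLCS against healthy and CLCS against untreated samples, fitted with limma. Circles are estimates, filled where the adjusted p is under 0.05, and lines are 95% confidence intervals. CILP carries the filled circles, at -2.78 and -2.39, and all 5 intervals of CLCS against untreated samples include 0.

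CLCS and untreated defects were also compared directly. Scaffolds were placed in right knees and left knees were untreated, so scaffold and side cannot be told apart. All 5 genes had a higher estimate with the scaffold, and none passed the test, as was the case for all 3275 tested genes. Of those, 0% were called by limma, 95 (2.9%) had an unadjusted p under 0.05, and edgeR and DESeq2 also called 0. The CLCS and untreated libraries overlapped for all 5 genes, and were apart for 8.34% of all tested genes. The log2 fold change was 0.89 for ACAN (SE 0.49, 95% confidence interval -0.24 to 2.03), 0.97 for CYTL1 (SE 0.58, -0.39 to 2.32) and 0.77 for LECT1 (SE 0.47, -0.33 to 1.87). It was 0.38 for CILP (SE 0.36, -0.45 to 1.22) and 0.23 for HAPLN1 (SE 0.62, -1.22 to 1.69). The adjusted p was 0.996 for each of them. The intervals include 0. They reach up to a 4.08-fold increase for ACAN, a 4.99-fold increase for CYTL1 and a 2.32-fold increase for CILP. They also include decreases, down to a fold of 0.43 for HAPLN1. With 3 libraries a group, neither a decrease, nor no change, nor an increase within these intervals is excluded. Untreated replicate 3 carried much of the difference: without it the fold changes were 0.40 for ACAN, 0.40 for CYTL1, 0.43 for LECT1, 0.04 for CILP and -0.14 for HAPLN1. Without untreated replicate 1, in contrast, that of CYTL1 was 1.62 (adjusted p = 0.998 from limma). Single CLCS libraries mattered as well. The fold change of LECT1 was 0.35 without CLCS replicate 2. That of HAPLN1 was 0.92 without CLCS replicate 1, -0.09 without CLCS replicate 2 and -0.14 without CLCS replicate 3.

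Compared by replicate number, the direction was the same for all 5 genes, though CILP differed little for numbers 1 and 2. The genes were read in the same pairs of libraries, so they are not separate observations. How many of all tested genes share this direction was not counted. Between the libraries of number 1 the CLCS value was the lower of the pair for every gene, with log2 differences from -0.04 for CILP to -1.44 for HAPLN1. For numbers 2 and 3 the CLCS value was the higher for every gene. The differences of number 2 ran from 0.06 for CILP to 1.38 for LECT1, and those of number 3 from 1.13 for CILP to 2.38 for ACAN. With the number as a block the adjusted p from limma was 0.884 to 0.958, so no call was gained.

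**Figure D3:**
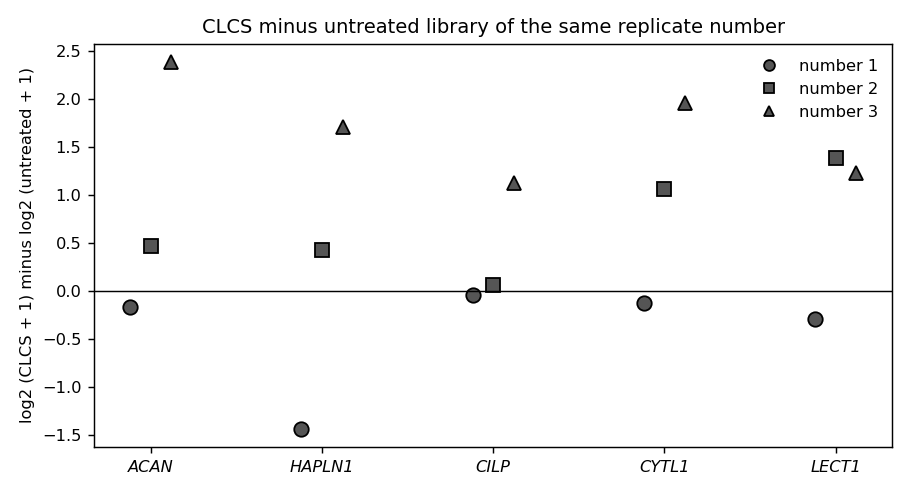
Difference between the CLCS and the untreated library of equal replicate number (vertical axis, log2 of normalized reads plus 1) for each gene. Each point is 1 pair of libraries. The pairs of number 1 lie below 0 and those of numbers 2 and 3 above it for all 5 genes, with HAPLN1 lowest at -1.44 and ACAN highest at 2.38.

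The order of the libraries was largely shared between the genes. Untreated replicate 3 had the lowest value of all 9 libraries for 4 genes, the exception being HAPLN1, and the lowest of its group for all 5. Healthy replicate 1 had the highest value of the 9 for 4 genes, the exception being LECT1, for which it was the lowest of its group. Summed over the 5 genes, normalized reads were 2292, 1303 and 895 in healthy, 514, 502 and 203 in untreated and 452, 710.5 and 784 in CLCS libraries. The defect libraries thus all lay below the healthy ones in this sum, to which CILP and ACAN contributed most. The summed level of 7 listed chondrocyte markers, most of it COL2A1, was likewise lowest in untreated replicate 3, at 630.1 against 4608 and 9523 in the other untreated libraries. It was 7594 to 10058 for healthy libraries and 9572 to 26906 for CLCS libraries.

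Ratios within a library do not depend on its scaling, and were used to ask whether the genes kept their proportion to ACAN. CILP did not. Its reads amounted to 232%, 120.5% and 142% of those of ACAN in healthy libraries, to 42.5%, 52.5% and 64.5% in untreated and to 46.7%, 39.6% and 27.1% in CLCS libraries. The log2 ratio of CILP to ACAN differed from healthy samples by -1.59 in untreated and by -2.10 in CLCS samples, with no overlap between groups. For each, an exact two-sided permutation test gave p = 0.1, the smallest that 3 against 3 libraries allow, and 0.4 after adjustment over the 12 ratio comparisons made. The ratio is therefore a measured separation. The permutation test could not have passed the threshold with 3 libraries a group, so no conclusion is drawn from its p. HAPLN1 amounted to 5.98% to 10.9% of the ACAN reads in healthy, 7.61% to 10% in untreated and 2.92% to 8.48% in CLCS libraries. These ranges overlap. CYTL1 ranged from 11.4% to 52.1% in healthy, 5.43% to 15.8% in untreated and 5.94% to 16.2% in CLCS libraries, and LECT1 from 8.21% to 20.6%, 15.2% to 21.8% and 9.98% to 29.0%. The exact p of these 9 further comparisons and of CILP between the 2 defect groups was 0.2 or more.

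**Figure D4:**
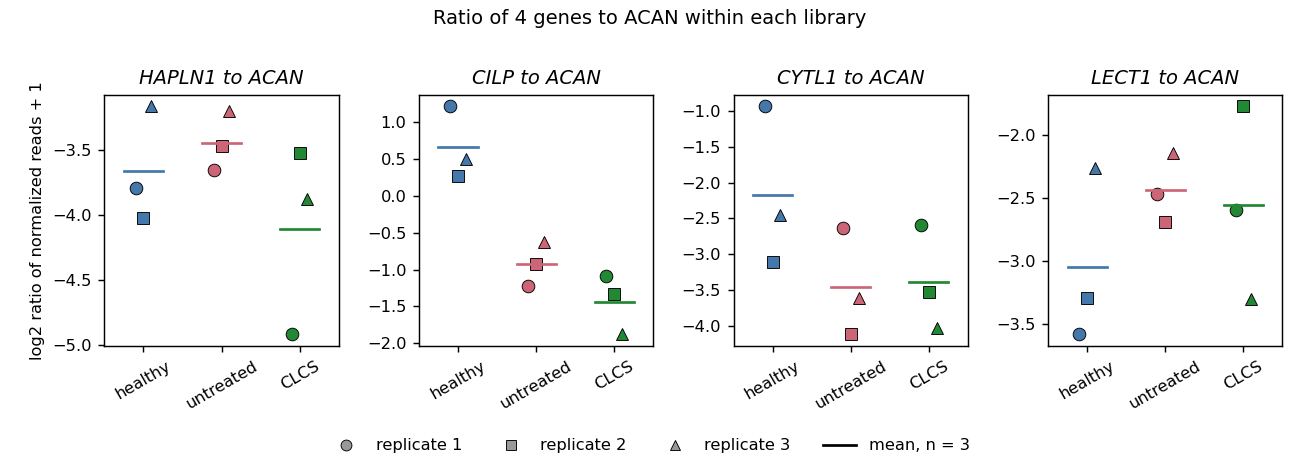
Log2 ratio of HAPLN1, CILP, CYTL1 and LECT1 to ACAN within each library (vertical axis, computed on normalized reads plus 1). Points are libraries with the marker giving the replicate number, and lines are means of 3. CILP is the gene whose ratio separates all 6 defect libraries from the healthy ones, with mean ratios of 0.66 (healthy), -0.92 (untreated) and -1.43 (CLCS).

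Genes with the profile most like each of the 5 were ranked by Pearson correlation over the 9 libraries among 3811 other genes. The libraries share group and depth, so the values describe likeness only. For ACAN the closest were FIBIN (r = 0.96), COL11A2 (0.95), a chain of the type XI collagen of cartilage fibrils, CLEC3A (0.94), a cartilage lectin, FPR1 (0.92) and ENSOCUG00000001968 (0.91). For HAPLN1 they were ENSOCUG00000006527 and FSIP1 (both 0.96), SEMA3C (0.92), COL11A1 and ZBTB32 (both 0.89). For CILP they were SEMA3D (0.98), ENSOCUG00000005336 (0.98), SDK2 (0.96), PPP1R3C and KIAA1211 (both 0.95). For CYTL1 they were TAPBPL and ANXA8 (both 0.95), SLC38A4, KIAA1211 and C2orf40 (all 0.94). LECT1 had no profile as close, with TM9SF2 (0.89), ENSOCUG00000020673 and GFPT2 (both 0.85), ZDHHC16 (0.84) and NGEF (0.82). Among the 5 genes themselves the closest pair was CILP and CYTL1 (r = 0.87) and the least alike CILP and LECT1 (0.30).

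The other genes of the pathway were taken from 6 lists, and most did not pass the filter on low reads and were not tested. Genes are counted as listed only where their symbol was among the deposited genes. This held for 6 of 7 cartilage collagens sought and for 16 of 25 other matrix and secreted proteins. Of the cartilage collagens, all 6 listed were tested and 0 were called in either comparison with healthy cartilage. Their median log2 fold change was -1.26 in untreated and 0.21 in CLCS samples. The estimate was lower in untreated samples for all 6, and in CLCS samples it was higher for 4 and lower for 2. Both medians rested largely on 1 library. Without untreated replicate 3 the median in untreated samples was -0.53, with 5 genes lower and 1 higher, and without CLCS replicate 3 that in CLCS samples was -0.15, with 4 lower and 2 higher. COL2A1 averaged 7817 ± 878 normalized reads (SD, n = 3) for healthy, 4445 ± 4192 for untreated and 14529 ± 9531 for CLCS cartilage. In single libraries COL2A1 had 8816, 4062 and 458 normalized reads in untreated and 8971, 9082 and 25534 in CLCS cartilage, where the healthy maximum was 8610. The CLCS libraries lay above the healthy ones, but the difference did not pass the test (log2 fold change 0.71, SE 0.44, limma adjusted p = 0.462), and was 0.21 without CLCS replicate 3. COL11A1 was the cartilage collagen with all untreated libraries below the healthy ones (-1.15, SE 0.37, adjusted p = 0.169 from limma).

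Of 16 listed genes for other matrix and secreted proteins of chondrocytes, 4 were tested in untreated and 3 in CLCS samples. OGN was called lower in both, where 1.2% and 1.03% of all tested genes were. OGN encodes osteoglycin, a small leucine-rich proteoglycan. It had 38 to 92 reads in healthy, 2 to 13 in untreated and 6 to 11 in CLCS libraries. On the log2 scale OGN changed by -3.20 in untreated (limma, adjusted p = 0.0493) and by -2.63 in CLCS samples (limma, adjusted p = 0.0240). CLEC3A had 142 ± 65.8, 22.5 ± 19.6 and 78.2 ± 42.4 normalized reads in healthy, untreated and CLCS samples, and PRELP, which anchors matrix to cells, had 55.2 ± 47.8, 13.4 ± 6.82 and 27.5 ± 18.8. Neither passed the test. The median log2 fold change of the tested genes was -2.41 in untreated and -0.90 in CLCS samples.

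Genes that assemble the glycosaminoglycan chains of aggrecan gave no call: 5 of 26 listed genes were tested in each comparison, with medians of -0.25 in untreated and 0.12 in CLCS samples. They were UGP2, which makes UDP-glucose, PAPSS1 and PAPSS2, which make the sulfate donor, CSGALNACT2, which starts chondroitin chains, and CHST3, which sulfates them. No estimate among them passed the test. Of 12 listed genes of the aggregate and of hyaluronan, 2 were tested and 0 called. These were ITIH2, whose product is linked to hyaluronan, and CEMIP, which takes part in its breakdown. In CLCS samples the log2 fold change was -0.44 for ITIH2 and 0.51 for CEMIP.

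Of 13 listed proteases that cleave aggrecan or its partners, their inhibitors and clearance receptor, 5 were tested against healthy cartilage, and MMP13 was called higher in both, where 1.34% and 2.13% of all tested genes were. MMP13, a collagenase that also cuts aggrecan, averaged 4.13 ± 0.552 normalized reads for healthy, 85.7 ± 26.3 for untreated and 39.7 ± 12.1 for CLCS cartilage. The aggrecanase ADAMTS4 did not pass the test, with log2 fold changes of 0.51 (SE 0.34, adjusted p = 0.533 from limma) in untreated and 0.24 (SE 0.33, adjusted p = 0.765 from limma) in CLCS samples. The same held for ADAMTS8, LRP1 and TIMP3. MMP2 and MMP14 did not pass the filter on low reads against healthy cartilage. MMP2 averaged 2.22 ± 3.01 normalized reads for healthy, 16.2 ± 9.31 for untreated and 13.9 ± 4.98 for CLCS cartilage. MMP14 averaged 4.41 ± 1.31, 17.0 ± 12.5 and 11.2 ± 1.11. Not all of the other untested genes of this list were higher. Of the 9 listed transcription factors of chondrocytes none passed the filter on low reads used here, so none was tested. SOX9 had 33.0, 41.6 and 3.61 normalized reads in healthy, 4.73, 4.0 and 3.63 in untreated and 4.13, 7.87 and 11.2 in CLCS libraries. Its healthy values were not alike: replicate 3, with 4 reads, lay at the level of the untreated libraries, although that library had 307 normalized reads of ACAN.

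**Figure D5:**
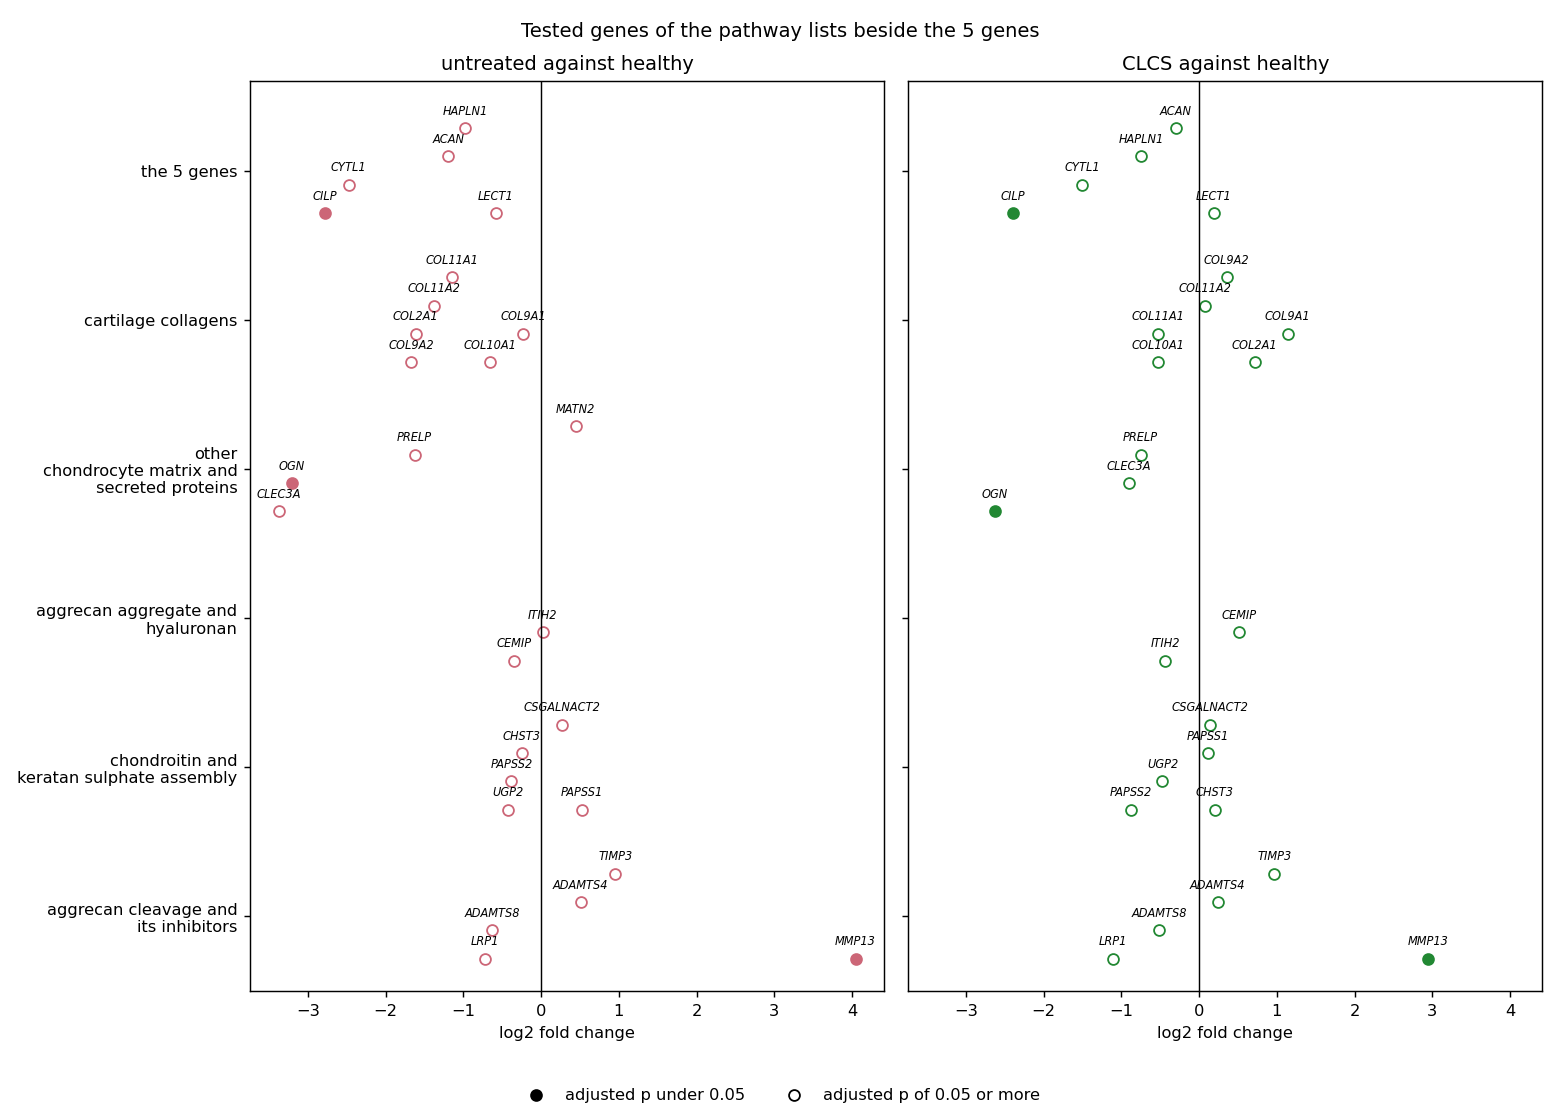
Log2 fold change (horizontal axis) of every tested gene of 5 pathway lists beside the 5 genes, in untreated against healthy (left) and CLCS against healthy samples (right). Each circle is a gene, filled where the adjusted p from limma is under 0.05. CILP and OGN are filled on the lower side and MMP13 on the higher side in both comparisons.

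Levels of marker lists of other tissues are given here beside those of the 5 genes. The summed level of 8 listed markers of fibroblasts and fibrous tissue was 486 to 706 normalized reads in healthy, 1710.3 to 4874 in untreated and 2399 to 3938 in CLCS libraries. Of 6 tested markers 3 were called higher in both comparisons, where 1.34% and 2.13% of all tested genes were. The summed level of 9 markers of osteoblasts and osteocytes was 308 to 921 in healthy, 986 to 2985 in untreated and 1864 to 2430 in CLCS libraries. Of 5 tested markers 0 were called in untreated and 1, higher, in CLCS samples. SOST was at 0 in healthy and CLCS samples. The 7 osteoclast markers summed to 5.42 to 34.9, 69.8 to 165 and 43.6 to 172, with 0 of 2 tested markers called in either comparison. The 6 leukocyte markers summed to 18.1 to 33.5, 47.3 to 70.7 and 29.9 to 47.5, so healthy and CLCS libraries overlapped, and 0 of their tested markers were called. Endothelial markers stayed at 16.5 normalized reads or less in sum, and PECAM1 and VWF were at 0 in healthy samples. Of 9 erythroid symbols sought only 2, ALAS2 and SLC4A1, were among the deposited genes, and no hemoglobin symbol was. These 2 summed to at most 3.94, which does not measure the blood content. Adipocyte markers, present for 4 of 6 symbols sought, summed to at most 16.0. Skeletal muscle markers, like CILP and CYTL1, were lower in all 6 defect libraries: the 6 listed markers summed to 13.2, 27.4 and 47.0 in healthy, 5.44 to 9.45 in untreated and 5.90 to 10.3 in CLCS libraries. Most of the difference lay in TNNT3, a fast muscle troponin, and ACTA1 and MYH1 were at 0 in both defect groups. None of the endothelial, erythroid, adipocyte and muscle markers passed the filter on low reads, so none was tested. The part of these tissues in the lower CILP, ACAN and CYTL1 values was not tested. Summed fibrous and leukocyte markers were highest in untreated replicate 3, the library with the lowest value of 4 of the 5 genes. Its sums of the other lists of this paragraph, such as osteoblast (986) and osteoclast markers (69.8), were the lowest of the untreated libraries.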

How the data were processed

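The authors selected polyA RNA, made TruSeq libraries, aligned the reads with Bowtie and TopHat (build oryCun2.0), kept unique alignments, counted them with eXpress and normalized with DESeq2. Versions and the strand setting are not given in the sources used here. The deposited signal per gene is reads divided by the size factor of the library. Every value is a whole multiple (within 0.001) of the smallest one in its column, so whole reads were recovered for 100% of values. The 3 healthy columns, identical in both tables, were used once.

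Groups were compared with limma 3.58.1 (R 4.3.3), each comparison on its own 6 libraries. Deposited values were log2 transformed with a pseudocount of 1, and genes were kept by filterByExpr of edgeR 4.0.16 on recovered reads. A call is a Benjamini-Hochberg adjusted p under 0.05 over all tested genes. A fold change is on the log2(value + 1) scale, which understates changes of low genes. Named genes were the 5 members, the 5 most similar profiles of each, annotated neighbours within 1000 bases, the called genes and the 4 with the highest mean of each list, and the most abundant gene. The members and lists were chosen with earlier results of these data known. CHST3 and TIMP3 were named to complete short counts, after their values were seen, and SOST, PECAM1, VWF, ACTA1 and MYH1 as markers at 0. MMP2 and MMP14 were named after the data were seen, as proteases not tested against healthy cartilage whose means were higher in both defect groups. Cartilage collagens without untreated or CLCS replicate 3 were added after the data were seen. RefSeq names of mOryCun1.1 matched 4 genes by symbol and LECT1 as CNMD. Gene sequences were not used here.

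On simulated data for untreated against healthy samples, 58.8% of 194 genes with a log2 change of 2 among 3291 tested were recovered, and 7.32% of calls were unchanged genes. Alternatives were edgeR, DESeq2 1.42.0, other scalings, pseudocounts and filters, a shared fit, a replicate block and leaving out each library. Equal replicate numbers were checked with deviations from the group mean across genes, with correlations for numbers 1 to 3 of 0.29, 0.13 and -0.04 (untreated with healthy), 0.28, 0.14 and 0.19 (CLCS with healthy) and 0.25, 0.33 and 0.30 (CLCS with untreated). All were over 0.1 in the comparisons that include CLCS, and number 3 was not in untreated with healthy. Unequal numbers ran from -0.26 to -0.04 in CLCS with untreated, where every equal number was higher. They ran from -0.19 to 0.007 in CLCS with healthy and from -0.23 to 0.11 in untreated with healthy. The 0.11 was that of untreated 2 with healthy 3. The labels do not name the animals. Pairing by number was therefore not settled across the 3 comparisons. Values are from the fit without the block unless stated. The number of libraries and the recovered reads per gene limit precision, and no interval here covers more than the spread between libraries.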

Additional observations from a re-analysis of the deposited data

How the results depend on the processing

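Across the 15 log2 fold changes of the 5 genes and 9 other settings, 129 values kept direction and side of the threshold, 3 lost a call and 3 gained one. CILP lost its call in untreated samples with scaling that left out the most abundant gene (-2.76, adjusted p = 0.0528) and, without a filter on low values, in both untreated (-2.78, 0.0729) and CLCS samples (-2.39, 0.11). Without the filter the adjustment ran over 14300 and 13856 genes. CYTL1 gained a call under DESeq2 in untreated (-2.65) and CLCS samples (-1.99) and, in the replicate block fit, in untreated samples (-2.47, adjusted p = 0.0343), where pairing by number was not settled. The number of the 5 genes called thus ranged from 0 to 2 in both comparisons with healthy samples, and was 0 under every setting in CLCS against untreated samples.

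The count of all called genes was 89 in untreated against healthy samples, with 275 under DESeq2, 20 without a filter and 173 in 1 fit of all 9 libraries, and 104 in CLCS against healthy samples, with 243 under DESeq2 and 13 without a filter. With the replicate block it was 94 and 125.

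With 1 library left out, 0 of the 5 genes were called, 1 to 9 genes in all were called in untreated and 0 to 75 in CLCS samples, and CILP ranged from -3.14 to -2.33 and from -2.75 to -1.95. LECT1 in CLCS against healthy samples ranged from -0.23 to 0.49. HAPLN1 in CLCS against untreated samples ranged from -0.14 to 0.92, and was -0.14 without untreated replicate 3, -0.09 without CLCS replicate 2 and -0.14 without CLCS replicate 3. The 96 ratios to ACAN under other settings moved by less than the spread between libraries. CYTL1 in CLCS against untreated samples ranged from 0.40 to 1.62. The causes of the lost and gained calls were not tested. HAPLN1, CYTL1 and LECT1, with as few as 7, 8 and 24 reads in a library, are the genes most limited by their recovered reads.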
